A study of Mus musculus with 9 samples.

Results

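The genes described here are the 51 protein-coding neighbours of Thbs1 on mouse chromosome 2, taken by symbol from a list of the genes on either side of it. All 51 were among the 30579 genes of the table. The rule uses position alone and no level of RNA. In GRCm38 (mm10) they lie within chr2:117121374-121016904, with 3 before Thbs1 and 48 after it. The RNA came from mesenchymal stromal cells, the fibroblast-like support cells of bone marrow, which were sorted by flow cytometry after harvest of long bones. The 9 libraries form 3 groups of 3, young controls at an age of 3 months, aged controls at 18 months, and a group labelled as aged Thbs1 knockout, also at 18 months. All mice carried an injected antibody to VE-cadherin, a junction protein of endothelial cells. The sources used here do not give the strain, the origin of the knockout allele, the number of backcrosses, the relation of controls to knockouts or the number of mice per library. P-values therefore reflect the spread among libraries alone, which may be technical.

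Thbs1 is the gene of thrombospondin-1, a glycoprotein secreted into the matrix. A targeted allele is usually made in embryonic stem cells of one inbred strain and then crossed into another, and genes close to the target travel with it because recombination between them is rare. Such neighbours can carry the donor strain's alleles, called passengers, in every knockout animal and in no control, and may differ in RNA level for that reason alone. The neighbours were taken by position and not by function. They include the amino acid sensor kinase Eif2ak4, mitotic proteins, membrane-tethering factors, chromatin proteins and mitochondrial enzymes.

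Thbs1 itself was measured at 75.0, 73.1 and 58.0 FPKM (fragments per kilobase of transcript, scaled to all mapped fragments of the library) in the young controls. The aged controls had 35.6, 41.9 and 36.9 FPKM, and the labelled-knockout libraries 24.3, 44.6 and 37.1. The last 2 groups overlapped, with a log2 fold change of -0.15 (SE 0.26, limma adjusted p = 0.801) and an exact two-sided permutation p of 0.9, where the smallest possible p is 0.1. Without labelled-knockout replicate 1 the log2 fold change was 0.09, in the other direction. Against all 6 controls it was -0.56 (SE 0.22, limma adjusted p = 0.357). In aged against young controls it was -0.83 (SE 0.26, limma adjusted p = 0.107). Without labelled-knockout replicate 2 that last comparison passed, at a limma adjusted p of 0.0220. The RNA values thus did not separate the labels, and a gene-level value cannot show whether the remaining RNA carries a deletion. The group is therefore called labelled knockout throughout, and no direction is tied to a loss of Thbs1. Exons of Gm29233, on the opposite strand, share 208 bases with those of Thbs1.

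Estimated depth was 17.6 to 27.4 M reads per library (M, mega). All 9 stromal markers, among them Cxcl12, Lepr and Kitl, were above 0 in each group. Their summed level was 8507 to 9589 FPKM in young controls, 4281 to 6230 in aged controls and 6591 to 9068 in the labelled-knockout libraries. The summed level of 11 pan-leukocyte markers was 59.6 to 112 FPKM in young controls and 652 to 2091 in aged controls. In the labelled-knockout libraries it was 65.3, 670 and 157. The B lineage and plasma cell markers, 9 in number, gave 118 to 130, 524 to 1495 and 172 to 1173 FPKM in the same groups, and none of these leukocyte markers was at 0 in every library of a group. Labelled-knockout replicate 2 stood apart, with correlations of 0.738 to 0.811 to the other libraries (log2 values across genes) and 13503 genes above 0, against 16557 to 18382 elsewhere. For Thbs1 and the neighbours, calls that changed without that library are named.

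Of the 51 neighbours, 37 reached 1 FPKM in at least 3 libraries and were tested. Between the labelled-knockout libraries and the 6 controls, 2 of 37 passed, at a limma adjusted p under 0.05 over all 11988 genes tested. Gpr176 fell, and Tmem87a rose. Across all genes 0.175% passed. Of the 21 genes called, 2 lie on chromosome 2 (9.52%), as do 919 of the tested genes (7.67%), and both are these neighbours. Leaving out 1 library at a time kept both calls only without aged control replicate 3 or labelled-knockout replicate 2. The count was 0 without any 1 of the other 7 libraries, namely each young control, aged control replicates 1 and 2, and labelled-knockout replicates 1 and 3. Neither fold change turned in any alternative that tested the gene. Since their groups did not overlap, only a rescaling could have turned the sign.

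Gpr176 encodes an orphan G-protein-coupled receptor, known from the central circadian clock of the brain. It is the tested member nearest to Thbs1, with its start 0.262 Mb away, and lies on the reverse strand at chr2:118277110-118373419 (ENSMUSG00000040133.2). Tmem87a encodes a membrane protein of the Golgi. It lies 2.29 Mb from Thbs1 on the reverse strand, at chr2:120355312-120404113 (ENSMUSG00000033808.16). Its start sits 217 bases inside Ganc, a neutral alpha-glucosidase gene on the forward strand, so that the pair is arranged head to head with overlapping first exons. The upstream sequences of these 3 genes are shown because the first pair carries the calls and Ganc shares the start region of one of them. They are RefSeq sequences of GRCm38.p6, 5′ to 3′ on each gene's own strand, from 250 bases before the start site. Capitals mark GGGCGG, the SP1 GC box, or its reverse complement in Gpr176, and the ETS motif CCGGAAG in Tmem87a. They cover chr2:118373420-118373669, chr2:120404117-120404366 and chr2:120403646-120403895.
Gpr176: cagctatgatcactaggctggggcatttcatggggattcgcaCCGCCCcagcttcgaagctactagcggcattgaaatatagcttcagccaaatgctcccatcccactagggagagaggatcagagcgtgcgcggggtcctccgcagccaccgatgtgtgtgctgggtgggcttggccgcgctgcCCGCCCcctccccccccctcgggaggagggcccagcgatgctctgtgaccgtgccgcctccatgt
Tmem87a: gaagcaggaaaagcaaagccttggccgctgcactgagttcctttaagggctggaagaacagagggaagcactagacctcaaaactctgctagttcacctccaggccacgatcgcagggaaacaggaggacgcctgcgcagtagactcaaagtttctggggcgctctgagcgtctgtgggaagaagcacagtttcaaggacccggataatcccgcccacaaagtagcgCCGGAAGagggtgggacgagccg
Ganc: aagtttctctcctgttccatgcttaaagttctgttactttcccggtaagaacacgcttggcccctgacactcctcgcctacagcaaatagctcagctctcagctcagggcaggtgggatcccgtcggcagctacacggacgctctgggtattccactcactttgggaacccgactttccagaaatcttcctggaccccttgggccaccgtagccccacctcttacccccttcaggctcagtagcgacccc

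Gpr176 held 2 matches to the GC box, 65 and 208 bases before its start. The motif was found, on either strand, in 33 of the 49 members with a promoter entry and in 32.7% of 32851 promoters of the same length. Here and below, a member counts if any of its entries matches, while percentages are of single entries. The counts and percentages are thus not directly comparable. Tmem87a held 1 ETS match, 23 bases before its start, and 1 further GC box 40 bases before it. CCGGAAG was found in 7 of the 49 members and in 6.91% of all promoters. Neither motif was found in the Ganc window. Of the other motifs searched on both strands, the 2 ATF4 sites TGATGCAA and TGACGCAA were in 3 of 49 members (1.21% of promoters), CCAAT in 17 (33.8%), the E-box CACGTG in 1 (6.02%), TATAAA in 1 (12.4%) and the cyclic AMP response element TGACGTCA in 0 (1.55%). These are the letters of the reference strain, and none of the deposited values reads a base in these mice.

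Gpr176 was at 20.8, 32.0 and 17.5 FPKM in the young controls and 18.9, 28.0 and 20.7 in the aged controls. It was at 7.02, 6.66 and 7.80 in the labelled-knockout libraries. All 3 of the latter lay below all 6 controls, with the lowest control at 17.5. The mean was 7.16 ± 0.583 FPKM (SD, n = 3) against 23.0 ± 5.72 over the 6 controls (SD, n = 6), or 31.2% of the control level. The log2 fold change was -1.53 (SE 0.23, 95% interval -2.04 to -1.01, adjusted p = 0.0477, limma), and its p-value had rank 19 of 11988. These levels rest on an estimated 468 to 2985 reads per library. Without labelled-knockout replicate 2 the adjusted p was 0.0201, and over the alternatives it ran up to 0.158. The receptor has 1 annotated transcript, and 133 bases of its exons are shared with the non-coding Gm29232 on the same strand. In a bulk sample a lower level of RNA per cell and fewer cells that make it cannot be told apart.

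Tmem87a was at 0.92, 0.88 and 1.77 FPKM in the young controls and 1.01, 1.02 and 0.77 in the aged controls. It was at 7.32, 3.58 and 8.25 in the labelled-knockout libraries. The lowest of these was above the highest control, and the library that stands apart was the lowest of the 3. The mean was 6.38 ± 2.47 FPKM (SD, n = 3) against 1.06 ± 0.359 (SD, n = 6), or 6.01-fold. The log2 fold change was 1.79 (SE 0.26, 95% interval 1.21 to 2.38, adjusted p = 0.0423, limma), from an estimated 116 to 1429 reads per library. Without labelled-knockout replicate 2 it was 2.11 (adjusted p = 0.00181), and over the alternatives the adjusted p ran up to 0.158. With a minimum of 5 FPKM the gene was not tested.

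Ganc, the partner at the same start region, overlapped between groups. Its values were 2.47, 2.94 and 2.49 FPKM in the young controls, 2.63, 3.15 and 1.95 in aged controls and 2.26, 2.58 and 2.44 in the labelled-knockout libraries. The log2 fold change was -0.07 (SE 0.18, adjusted p = 0.891). Ganc and Tmem87a share 209 exon bases on opposite strands, and reads there cannot be assigned without strand. The list holds 4 such pairs with starts within 1 kb, the others being Dnajc17 with Zfyve19, Oip5 with Nusap1 and Lrrc57 with Haus2, and no tested member of those other pairs passed.

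**Figure D1:**
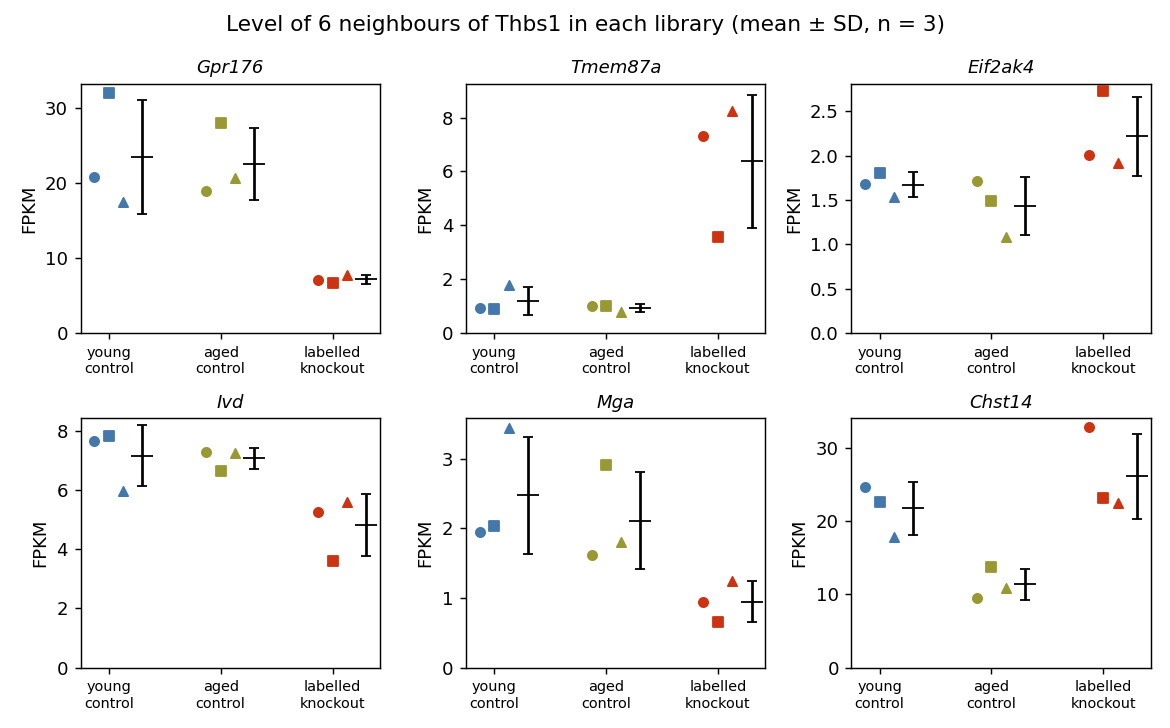
Levels in FPKM (linear axis from 0) of 6 neighbours of Thbs1 in the 3 young control, 3 aged control and 3 labelled-knockout libraries. Circle, square and triangle are replicates 1, 2 and 3, and black bars are mean ± SD (n = 3). Gpr176 lies at 6.66 to 7.80 FPKM in the labelled-knockout libraries and at 17.5 or above in the controls, Tmem87a at 3.58 or above and at 1.77 or below, while for Chst14 the aged controls are the low group.

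Another measure used no test and asked only that all 3 labelled-knockout values lie above, or all below, all 6 controls. Of the 37 tested neighbours 5 did so (13.5%), against 555 of 11988 genes (4.63%, with 2.16% higher and 2.47% lower). Tmem87a and Eif2ak4 were above. Gpr176, Ivd and Mga were below. The same share was 42 of 874, or 4.81%, among the other tested genes of chromosome 2, and 0 of 7 among the other tested genes inside the same window. All 5 stayed outside when any 1 library was left out, which follows from the definition and is no check of them. Without labelled-knockout replicate 2 the count was 9 of 36 (25%), with Rmdn3 and Rpap1 above and Bmf and Haus2 below in addition, while the share of all genes rose to 14.6%. Eif2ak4 overlapped the controls after median-ratio rescaling and after immunoglobulin genes were left out. After the rescaling Rmdn3 was above, and the count was 5 of 36 (13.9%), against 7.26% of all genes. Without immunoglobulin genes it was 4 of 38 (10.5%), against 7.21%, a smaller gap than in the main setting. Alleles of the neighbours were not measured, so a linked allele, the targeted allele and any other difference between these mice cannot be told apart.

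Eif2ak4 encodes Gcn2, the kinase that senses uncharged tRNA and phosphorylates the initiation factor eIF2. It begins 0.277 Mb from Thbs1. The levels were 1.68, 1.81 and 1.53 FPKM in young controls, 1.72, 1.49 and 1.08 in aged controls and 2.01, 2.73 and 1.92 in the labelled-knockout libraries. The lowest of these, 1.92 FPKM, was just above the highest control, 1.81, and the log2 fold change of 0.33 (SE 0.18, adjusted p = 0.484) did not pass. Kinases of eIF2 start the integrated stress response, for which 24 other genes were listed and 21 tested. Atf3, a transcription factor of that response, was the 1 gene of the list called against the 6 controls, with 141.6, 93.2 and 86.2 FPKM in young controls, 21.8, 25.8 and 21.2 in aged controls and 167.3, 148.1 and 236.2 in the labelled-knockout libraries. Its log2 fold change against the 6 controls was 1.85 (SE 0.23, adjusted p = 0.0299). The aged controls were its low group, with -2.14 for aged against young (SE 0.27, adjusted p = 0.00763). Eif2ak2, another eIF2 kinase, was the second by p, at -0.79 (SE 0.26, adjusted p = 0.280). The median of the list was 0.19, against -0.06 for all genes tested.

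Ivd encodes isovaleryl-CoA dehydrogenase, a mitochondrial enzyme of leucine breakdown, 0.750 Mb from Thbs1. The young controls had 7.66, 7.83 and 5.96 FPKM, with 7.29, 6.65 and 7.26 in aged controls and 5.24, 3.61 and 5.59 in the labelled-knockout libraries. All 3 were below the controls, the highest at 5.59 FPKM beside a lowest control of 5.96, and the log2 fold change was -0.49 (SE 0.19, adjusted p = 0.351). Mga encodes a Max-binding subunit of a Polycomb repressor complex and begins 1.79 Mb from Thbs1. The young controls had 1.95, 2.03 and 3.44 FPKM, with 1.62, 2.91 and 1.80 in aged controls and 0.95, 0.65 and 1.24 in the labelled-knockout libraries. All 3 were below the controls, at a mean of 0.947 ± 0.295 FPKM (SD, n = 3) against 2.29 ± 0.718 (SD, n = 6). Its log2 fold change was -0.74 (SE 0.23, adjusted p = 0.254), which did not pass.

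**Figure D2:**
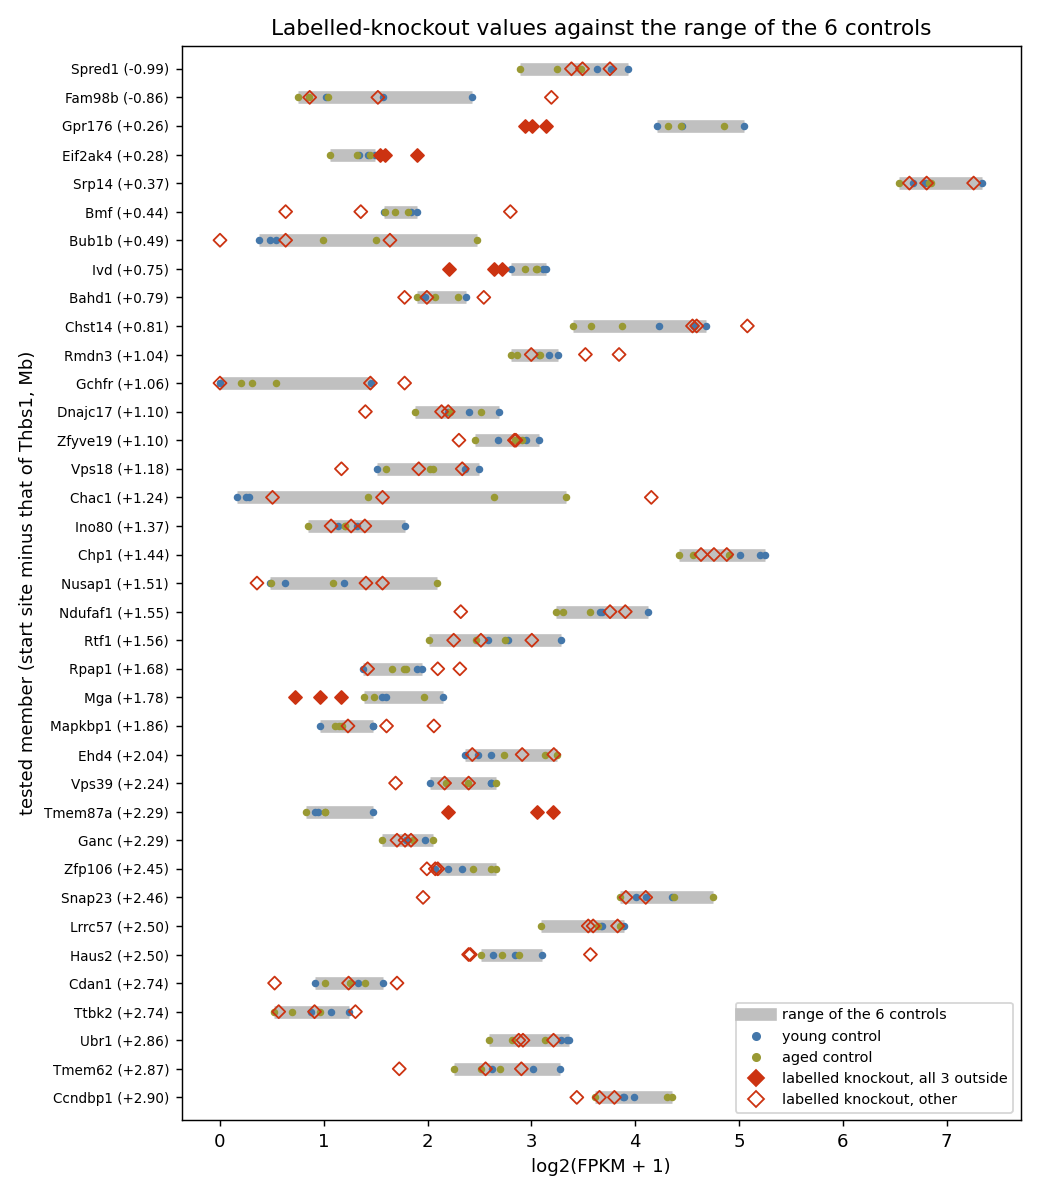
Level, as log2(FPKM + 1), of the 37 tested neighbours in order of distance from Thbs1 (start site difference in Mb in brackets). Grey bars span the 6 controls, dots are control libraries, and diamonds are labelled-knockout libraries, filled where all 3 lie outside the grey bar on the same side. The 5 filled rows are Gpr176, Eif2ak4, Ivd, Mga and Tmem87a, and in the other rows at least 1 diamond overlaps the bar or the diamonds fall on both sides.

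At the same age, between labelled-knockout libraries and aged controls, 3 of 37 neighbours passed, against 3.48% of all genes tested. Gpr176 fell by 1.51 on the log2 scale (SE 0.26, adjusted p = 0.0248, limma) and Tmem87a rose by 1.87 (SE 0.30, adjusted p = 0.0212). The third was Chst14, the dermatan sulfotransferase that places a sulfate on the dermatan chains of matrix proteoglycans. It was at 9.55, 13.7 and 10.9 FPKM in aged controls and 32.8, 23.1 and 22.5 in the labelled-knockout libraries, with no overlap. The log2 fold change was 1.12 (SE 0.24, adjusted p = 0.0412). Young controls, at 24.7, 22.6 and 17.8 FPKM, overlapped the labelled-knockout libraries, and against all 6 controls the value was 0.69 (adjusted p = 0.254). The number of passing neighbours ran from 0 to 4 when 1 library was left out. It was 0 without aged control replicate 1 or 2 or labelled-knockout replicate 1 or 3, and 1 without young control replicate 1. Without labelled-knockout replicate 2 it was 4 of 36 (11.1%), with Rmdn3 added, against 16% of all genes.

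The aged controls were also the group with the most RNA of the pan-leukocyte markers. Their stromal marker sums were the lowest, at 6230 FPKM or below. The 8 neutrophil markers summed to 121, 176 and 293 FPKM in young controls and 225, 27.4 and 235 in aged controls, with overlap. They summed to 24.6, 52.2 and 54.4 in the labelled-knockout libraries. Of 10 tested pan-leukocyte markers, 7 passed as lower in the labelled-knockout libraries than in aged controls and 8 passed as higher in aged than in young controls. The part of leukocyte and stromal RNA in the Chst14, Gpr176 and Tmem87a differences was not tested. In aged against young controls, Gpr176 had a log2 fold change of -0.03 (SE 0.26, adjusted p = 0.962). The value for Tmem87a was -0.16 (SE 0.30, adjusted p = 0.796).

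Between aged and young controls 0 of 37 neighbours passed in limma, against 4.04% of all genes tested. At an unadjusted p under 0.05 there were 6 of 37 neighbours (16.2%), below the 21.7% of all genes tested. The median log2 fold change was -0.16 for the neighbours, with 8 above and 29 below 0, and -0.28 for all genes. After median-ratio rescaling the median of all genes was -0.0019 in place of -0.28, and in labelled knockout against aged controls it moved from 0.07 to -0.04. The lowest p-value among the neighbours was that of Chst14, with -0.88 (SE 0.24, adjusted p = 0.0802). Without labelled-knockout replicate 2, which then no longer adds to the shared estimate of spread, 2 of 36 neighbours passed (5.56%), Chac1 and Chst14, against 23.1% of all genes. The 3 comparisons share libraries, so their values for a gene are not independent of each other.

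The other neighbours are given by role. Of the members that act in stress responses and translation, 5 of 6 were tested and none passed in any comparison. Srp14, a subunit of the signal recognition particle, was the most abundant neighbour, at 101.2, 109.5 and 161.4 FPKM in young controls, 112.7, 92.2 and 114.5 in aged controls and 98.8, 152.2 and 111.0 in the labelled-knockout libraries. The groups overlapped throughout (log2 fold change against the 6 controls 0.06, SE 0.23, adjusted p = 0.920). Fam98b, part of the tRNA ligase complex and the nearest tested member before Thbs1, was at 0.68 to 4.37 FPKM in the controls and at 0.82, 8.14 and 1.87 in the labelled-knockout libraries. Only the library that stands apart was above the controls. The same library was the high value for Bmf, a pro-apoptotic protein, at 5.95 FPKM beside 0.55 and 1.56.

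Chac1, which degrades glutathione and is a target of Atf4, differed widely between libraries of a group. This gene, like the other members described beyond the rule for named genes, was chosen after its values were seen. Levels were 0.19, 0.21 and 0.12 FPKM in young controls, 9.06, 1.68 and 5.22 in aged controls and 0.42, 16.8 and 1.96 in the labelled-knockout libraries. All 3 aged controls were above all 3 young controls, and the labelled-knockout values lay below, inside and above the aged range. The log2 fold change of aged against young was 2.23 (SE 0.82, adjusted p = 0.155), and that of labelled knockout against the 6 controls was 0.73 (SE 0.71, adjusted p = 0.678).

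Of the mitotic members, 3 of 5 were tested and none passed. The most abundant was Haus2, a subunit of augmin, which branches spindle microtubules. It was at 4.70 to 7.57 FPKM in the 6 controls and at 4.32, 10.9 and 4.26 in the labelled-knockout libraries. Replicates 1 and 3 lay below the controls and replicate 2 above them, which left a log2 fold change of 0.01 (SE 0.29). Bub1b, a spindle checkpoint kinase, was at 0.30 to 0.45 FPKM in young controls and 0.99 to 4.55 in aged controls. In the labelled-knockout libraries it was at 0.55, 0.00 and 2.11. A list of 20 other mitosis genes, with 14 tested, also held 0 calls in each comparison. In labelled knockout against the 6 controls, 2 of the 14 were above 0 and 12 below (median -0.24), with Mis18a at -0.66 (adjusted p = 0.378) and Ccna2 at -0.70 (adjusted p = 0.524). Oip5, which works with Mis18a in loading the centromere histone, was below the testing minimum. It was at 0.13, 0.00 and 0.16 FPKM in the labelled-knockout libraries and at 0.37 to 2.28 in the controls, so it too lay below all 6. Its 3-read limits in those libraries are 0.065 to 0.094 FPKM.

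Of the vesicle traffic members, 7 of 8 were tested, and Tmem87a was the one that passed. Chp1, a calcium-binding partner of sodium-proton exchangers, was the most abundant, at 20.4 to 37.2 FPKM in the controls and 26.1, 28.5 and 23.8 in the labelled-knockout libraries. Snap23, a SNARE of the plasma membrane, was at 13.5 to 25.9 FPKM in the controls and at 14.0, 2.88 and 16.2 in the labelled-knockout libraries. The low value came from the library that stands apart, and the log2 fold change was -0.92 (SE 0.45, adjusted p = 0.444). Vps18 and Vps39, subunits of the HOPS complex that tethers late endosomes to lysosomes, were at 1.86 to 4.65 and 3.07 to 5.32 FPKM in the controls. In the labelled-knockout libraries they were at 4.04, 1.25 and 2.77, and at 4.26, 2.23 and 3.48. Of 6 further HOPS and CORVET genes, all tested, none passed in any comparison (median -0.31 against the 6 controls). The lowest p-values were those of Vps8 (0.35, adjusted p = 0.499) and Vps16 (-0.54, adjusted p = 0.522).

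Among 12 signalling members only 4 were tested, Gpr176 the most abundant and the only one to pass. Spred1, an inhibitor of Ras and ERK signalling and the first gene of the window, was at 6.40 to 14.2 FPKM in the controls and at 10.3, 9.45 and 12.5 in the labelled-knockout libraries. Its log2 fold change was 0.06 (SE 0.20, adjusted p = 0.916). Mapkbp1, a JNK-binding protein, and Ttbk2, a kinase needed to build cilia, overlapped the controls, at 0.41 (adjusted p = 0.494) and 0.03 (adjusted p = 0.958). Of 12 other Ras regulators and targets, 11 were tested and 0 passed in each comparison (median -0.19 against the 6 controls), with Spry4 at 0.54 (adjusted p = 0.442) and Nf1 at -0.30 (adjusted p = 0.538). Tyro3, a receptor tyrosine kinase of the TAM family, stayed under the minimum, at 0.22 to 0.51 FPKM in the controls and at 1.35, 0.00 and 1.15 in the labelled-knockout libraries. The TAM relatives and ligands Axl, Mertk, Gas6 and Pros1 were all tested and none passed (median 0.02), with Gas6 at 0.46 (adjusted p = 0.569) and Mertk at -0.24 (adjusted p = 0.646).

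All 9 chromatin and transcription members were tested and none passed. Ccndbp1, a binding partner of cyclin D1 and the last gene of the window, was at 11.2 to 19.4 FPKM in the controls and at 9.83, 12.9 and 11.6 in the labelled-knockout libraries. Its log2 fold change was -0.38 (SE 0.21, adjusted p = 0.499). Besides Mga, the log2 fold changes of the group ran from -0.40 for Dnajc17, a splicing-linked co-chaperone, to 0.20 for Rpap1, an RNA polymerase II assembly factor. Ino80, the remodelling ATPase, was at 0.80 to 2.44 FPKM in the controls and at 1.10, 1.63 and 1.40 in the labelled-knockout libraries, a log2 fold change of -0.01. Of its 13 complex partners, all tested, none passed (median -0.0016), with Uchl5 at -0.76 (adjusted p = 0.426) and Ruvbl2 at 0.36 (adjusted p = 0.499). Rtf1, which acts with the PAF1 elongation complex, had a log2 fold change of -0.05 (SE 0.26). Of the 4 PAF1 genes none passed (median -0.26), with Cdc73 at -0.23 (adjusted p = 0.596) and Ctr9 at -0.30 (adjusted p = 0.690).

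All 6 mitochondrial and metabolic members were tested, and besides Ivd, Chst14 and Ganc they were Ndufaf1, Rmdn3 and Gchfr. Rmdn3, a tether between mitochondria and endoplasmic reticulum, was at 5.99 to 8.54 FPKM in the controls and at 13.4, 6.99 and 10.5 in the labelled-knockout libraries. Replicates 1 and 3 were above every control and replicate 2 was among them (log2 fold change 0.41, SE 0.21, adjusted p = 0.469). Ndufaf1, a complex I assembly factor, was at 8.44 to 16.5 FPKM in the controls and at 14.0, 3.99 and 12.5 in the labelled-knockout libraries (-0.27, SE 0.34). Gchfr, the feedback regulator of GTP cyclohydrolase, was the least abundant tested neighbour and was listed at 0.00 in 3 of 9 libraries. Of the proteases, inhibitors and ubiquitin ligases only Ubr1 was tested, the ligase that recognizes destabilizing protein ends. It was at 5.04 to 9.26 FPKM in the controls and at 6.56, 8.27 and 6.35 in the labelled-knockout libraries (-0.08, SE 0.19, adjusted p = 0.858).

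The 14 neighbours under the testing minimum were Fsip1, Pak6, Plcb2, Rpusd2, Ppp1r14d, Spint1, Rhov, Oip5, Itpka, Ltk, Tyro3, Capn3, Stard9 and Rasgrp1. Apart from Ppp1r14d and Plcb2, their highest value in any library was 2.28 FPKM. Ppp1r14d, an inhibitor of protein phosphatase 1, reached 9.99 FPKM in labelled-knockout replicate 2 and at most 0.22 elsewhere. Plcb2, a phospholipase of blood cells, was at 5.84, 8.88 and 0.71 FPKM in the aged controls, at 0.02 to 0.09 in the young controls and at 0.00, 0.02 and 0.34 in the labelled-knockout libraries. Within the aged controls the pan-leukocyte sum was likewise lowest in replicate 3, at 652 FPKM. Labelled-knockout replicate 2 had a sum of 670 FPKM beside its Plcb2 value of 0.02. The part of leukocyte RNA in the Plcb2 values was not tested.

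**Figure D3:**
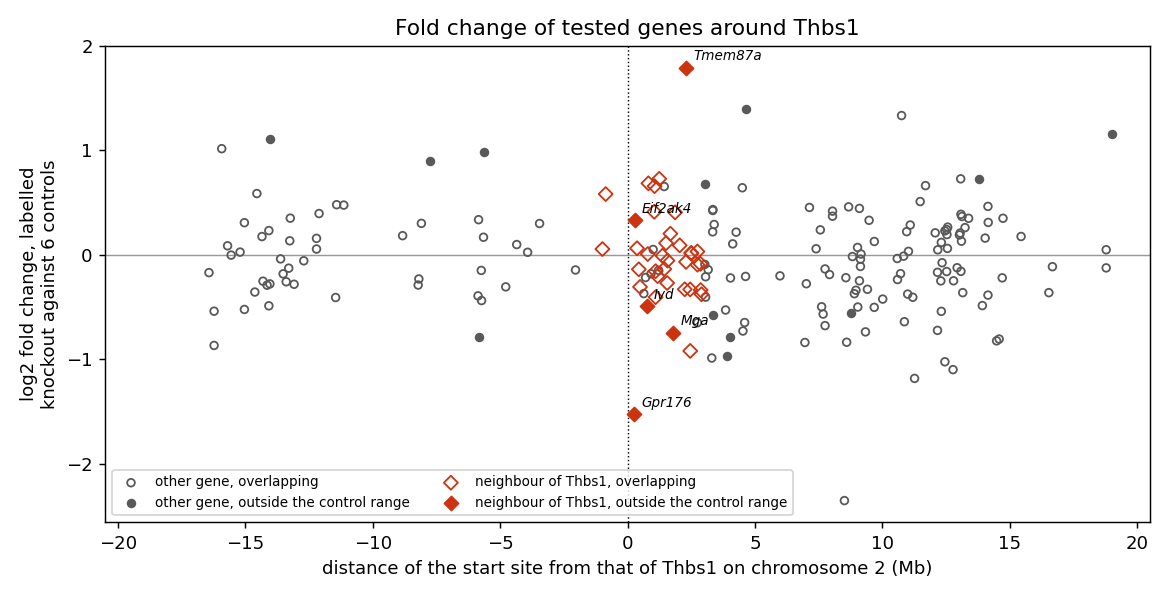
Log2 fold change of labelled-knockout libraries against the 6 controls (vertical axis) by distance from Thbs1 within 20 Mb on chromosome 2 (horizontal axis, Mb). Each symbol is 1 tested gene, red diamonds are the 37 neighbours, filled symbols lie outside the control range, and no error bars are drawn. Gpr176 (-1.53) and Tmem87a (1.79) stand at opposite signs, and the neighbours between them lie on both sides of 0.

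The neighbours as a group lay on both sides of 0. In labelled knockout against the 6 controls, 17 of 37 log2 fold changes were above 0 and 20 below, with a median of -0.05, and for all genes the median was -0.06. The median absolute log2 fold change was 0.27 for the neighbours and 0.28 for all genes tested. Only Gpr176 and Tmem87a exceeded 1 in absolute value, that is 2 of 37, where 5.94% of all genes did. At an unadjusted p under 0.05 there were 5 of 37 neighbours (13.5%), against 12.2% of all genes.

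Within the window, Gpr176 was the tested member nearest to Thbs1, while Tmem87a lay near the far end. Among the 5 tested members within 0.5 Mb after Thbs1, Gpr176 and Eif2ak4 were outside the control range, while Srp14, Bmf and Bub1b were not. That is 40%, where 4.63% of all genes tested were outside. The share was 37.5% of 8 within 1 Mb, 18.2% of 22 within 2 Mb and 14.3% of 35 within 3 Mb. Each of these sets holds the one before it, and they rest on few genes. The 2 tested members before Thbs1 overlapped the controls. A relation of these differences to distance from Thbs1 was not tested.

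**Figure D4:**
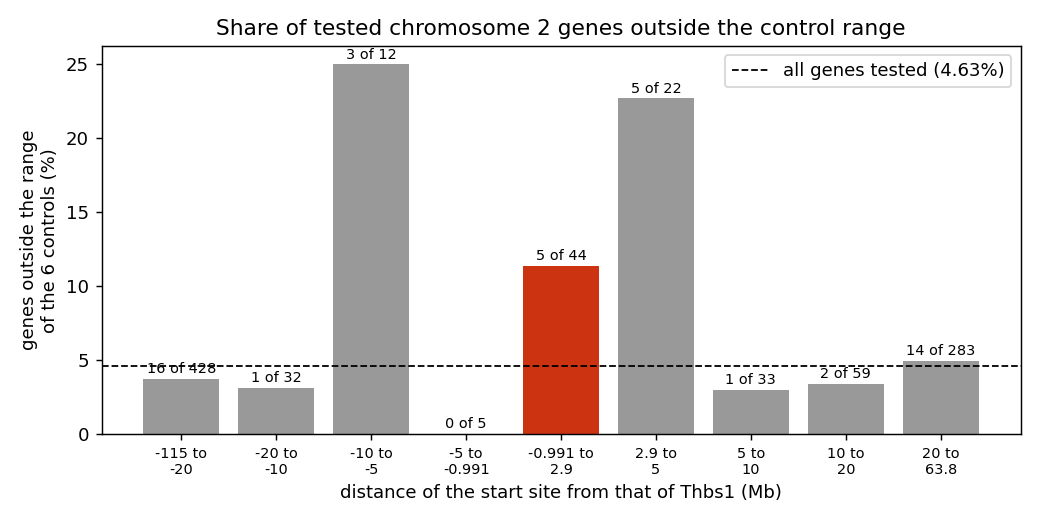
Share of tested chromosome 2 genes (percent, axis from 0) whose 3 labelled-knockout values all lie outside the range of the 6 controls, by distance of the start site from Thbs1 in Mb. The red bar is the window of the neighbours with the other genes inside it (5 of 44), the dashed line is the share over all genes tested (4.63%), and numbers above the bars are counts, 3 of 12 and 5 of 22 in the 2 higher bars.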

How the data were processed

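The authors deposited 1 table of FPKM values, rounded to 2 decimals, with 1 column per library and no pooling, per the file headers. FastQC 0.11.5, STAR, edgeR and the build GRCm38 (mm10) are named, without roles, per the submitters' processing notes. The sources used here do not give the annotation, the read counter or the use of strand. Because FPKM is relative to a library's total, abundant genes lower the values of the rest, and immunoglobulin genes took an estimated 0.00404% to 33.0% of the reads of a library.

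Columns were matched to samples by title and groups taken from it. Gene models of GENCODE M21 matched 30192 of 30579 symbols (98.7%). Depth was estimated from the steps between low FPKM values times exon length, sought between 2 and 60 M reads. With the depth chosen, 99.4% to 100% of the low values came to whole reads (tolerance 0.15). Limits are the FPKM of 3 reads and cover counting error only.

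Log2(FPKM + 1) was tested with limma 3.58.1 (R 4.3.3) and its trend option, in 1 fit of the 9 libraries with 3 group means and 6 residual degrees of freedom. Genes needed at least 1 FPKM in at least 3 libraries, which kept 11988. The contrast with 6 controls used the mean of the young and aged group means. P-values were adjusted by Benjamini and Hochberg over all genes tested, with a threshold of 0.05. On the log2(FPKM + 1) scale, fold changes of genes at low levels come out too small. The procedure was checked on simulated data. It drew equal noise for all libraries and changed abundant genes only. A library that stands apart and levels as low as those of Tmem87a were not covered. The remaining steps used matplotlib 3.10.9, scipy 1.17.1, pandas 2.3.3, numpy 2.4.6 and Python 3.11.15. No count test was run, since the values are not counts.

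The members, lists and rules were chosen with earlier results of these data known. Named genes are Thbs1, members that passed or lay outside the control range, the nearest on each side, the 5 most abundant, the most abundant of each role group, and the 2 lowest p-values of each list. Alternatives were other pseudocounts, filters and scalings, no trend, array weights, a replicate block, other groupings of the fit, and each library left out in turn. Some items are not reported here.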

Additional observations from a re-analysis of the deposited data

How the results depend on the processing

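Counts of calls were unstable. The fold changes of Gpr176, Tmem87a and Chst14 in the 2 labelled-knockout comparisons kept their sign in all alternatives that tested them. For Gpr176, Tmem87a and, against aged controls, Chst14, the groups did not overlap. Only a rescaling could have turned those signs, so the other alternatives are no check of them. The cause of the changes in counts was not tested. Against the 6 controls, Gpr176 passed in 9 of 19 alternatives (log2 fold change -1.64 to -1.41) and Tmem87a in 7 of 18 (1.60 to 2.44). Against aged controls, Gpr176 passed in 11 of 19, Tmem87a in 11 of 18 and Chst14 in 8 of 19.

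For labelled knockout against the 6 controls (2 members and 21 genes called), the member count was 1 with a pseudocount of 0.1, 0 and 6 genes with no filter, 1 and 10 genes with at least 5 FPKM, 9 and 3219 genes (26.9% of all) with array weights, and 0 and 2 genes with the controls as 1 group. Median-ratio rescaling gave 40 genes. With 1 library left out the counts were 0 to 2 members and 3 to 264 genes. For labelled knockout against aged controls (3 and 417), no filter gave 0 and 92, array weights 13 and 6347, the 6 aged libraries alone 0 and 14, and at least 5 FPKM gave 199 genes. With 1 library left out they were 0 to 4 and 13 to 1895. For aged against young controls (0 and 484), array weights gave 15 and 7419, the 6 control libraries alone 2 and 2155, no filter gave 138 genes, and leaving out immunoglobulin genes gave 1 member, Plcb2. With 1 library left out they were 0 to 2 and 4 to 2729. The count outside the control range was 2 of 19 with at least 5 FPKM, against 3.39% of all genes, and 5 to 9 with 1 library left out, against 5.11% to 14.6%. Leaving out a library can lower this count only through the filter.

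With the replicate number as a block the members called were 0, 0 and 0 and the genes called 5, 64 and 120, in the order of comparisons above, and adjusted p was 0.153 for both Gpr176 and Tmem87a against the 6 controls. Deviations of same-numbered libraries from their group means correlated at -0.288 to 0.302, and those of differently numbered libraries at -0.409 to 0.369. With means of 3 libraries, these values cannot show whether the numbers pair the samples.

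Some values with no call changed sign. Thbs1 against aged controls ran from -0.331 to 0.0939 with 1 library left out, the latter without labelled-knockout replicate 1. In aged against young controls, median-ratio rescaling gave 0.296 for Gpr176, 0.0575 for Eif2ak4, 0.292 for Ivd, 0.0729 for Mga and 0.0101 for Tmem87a, and leaving out immunoglobulin genes gave 0.291, 0.0572, 0.292, 0.0704 and 0.00994. Quantile normalization gave 0.217 for Gpr176 and 0.169 for Ivd, and array weights gave 0.0465 for Tmem87a. With 1 library left out the values ran from -0.210 to 0.209 for Gpr176, from -0.117 to 0.0543 for Ivd, from -0.333 to 0.0340 for Mga and from -0.257 to 0.0225 for Tmem87a. At 3 libraries a group, low values such as those of Tmem87a in the controls, from 116 reads upward, limit the precision.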

Other observations

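Chromosome 2 beyond the window held further genes whose labelled-knockout values all lay outside the range of the 6 controls. Between 2.90 and 5 Mb after Thbs1, 5 of 22 tested genes did so (22.7%), and between 5 and 10 Mb before it 3 of 12 (25%), against 4.63% of all genes tested. Between 5 and 10 Mb after it the count was 1 of 33 and between 10 and 20 Mb after it 2 of 59. None of these genes passed limma's test against the 6 controls. The bins rest on few genes, no test of the shares was made, and these genes were named after their values were seen.

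Sqor, a mitochondrial sulfide-oxidizing enzyme 4.65 Mb after Thbs1, was at 6.89 to 18.2 FPKM in the 6 controls and at 35.8, 26.5 and 23.4 in the labelled-knockout libraries. Its log2 fold change was 1.39 (SE 0.29, adjusted p = 0.114). Adal, an adenosine deaminase-like enzyme, was at 1.01 to 2.12 FPKM in the controls and at 3.00, 2.67 and 3.47 in the labelled-knockout libraries. Spg11, a lysosome protein, was at 1.43 to 2.34 and at 0.88, 0.24 and 1.21. Mfap1b and Eif3j1 were also below the controls, but each has a near-identical paralog, so their values are uncertain.

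Before Thbs1, Fibin was at 22.6 to 33.5 FPKM in the controls and at 51.7, 49.5 and 60.1 in the labelled-knockout libraries (0.90, SE 0.19, adjusted p = 0.114). Aven, an inhibitor of apoptosis, was at 1.10 to 2.54 and at 3.60, 6.99 and 3.53. Fibin passed against aged controls, at 1.02 (adjusted p = 0.0402).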
